A study of Homo sapiens with 18 samples.

Results

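The data described here are the 6 arrays of the TRβ1 pool, out of 18 in the series: 3 treated with T3 and 3 with vehicle, paired by the replicate number in their titles. HepG2 is an established human hepatocellular carcinoma line. Per the labels, HepG2 cells were stably transformed, under G418 co-selection, with a plasmid for thyroid hormone receptor TRβ1 (12 clones pooled), with one for TRα1 (6 clones pooled) or with the empty plasmid (11 clones pooled, called the control pool below). Cells of each pool were kept for 6 h with T3 (triiodothyronine, the form of thyroid hormone that binds the receptors) at 100 nM or with the ethanol carrier, in 10% serum stripped of hormones. The series design calls the 3 arrays of a group independent biological repeats. All repeats of a construct came from 1 pool of clones, so the effect of the introduced receptor and that of the chosen clones cannot be told apart. The p-values rest on the spread between repeats within a pool, estimated jointly over the 18 arrays of all pools. They do not measure the spread between pools of clones. The promoter that drove the receptor is not given in the sources used here. The measurement covered 20546 features (probe sets for a transcript) that carry a gene symbol, and 98 of them passed the test for a T3 response.

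Thyroid hormone receptors are nuclear receptors that sit on DNA as partners of the retinoid X receptor, with or without hormone. Without T3 they recruit corepressors at many genes, and with T3 they exchange these for coactivators, so that the gene is transcribed more. TRβ1 is the main receptor form of hepatocytes, where T3 is known for its effects on glucose production, fatty acid oxidation, cholesterol and bile acid handling.

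Markers matched the hepatocyte origin of the line. All 9 hepatocyte markers examined (ALB, AFP, APOA1, APOB, TTR, SERPINA1, TF, FGB and APOH) lay above the 75th percentile of every TRβ1 array, with a mean level of 11.91 to 12.05 on vehicle and 11.92 to 12.09 on T3. None of the 5 endothelial markers reached that percentile, and all 5 lay below the median of every array, with means of 3.97 to 4.13 on vehicle and 4.07 to 4.20 on T3. Of the macrophage markers 1 of 6 (CD68), of the stellate and fibroblast markers 1 of 7 (ACTA2), of the cholangiocyte markers 3 of 5 (KRT19, EPCAM and SOX9) and of the lymphocyte markers 0 of 5 lay above it. No marker of these 6 lists passed the test for T3. In a bulk sample such as this, fewer cells of a kind and less RNA per cell cannot be told apart. Arrays of the same number resembled each other: after subtraction of group means, the vehicle and T3 arrays of the TRβ1 pool correlated across features at 0.816, 0.648 and 0.70 for numbers 1, 2 and 3. Number 1 stood apart from the others on the first principal component, at -37.6 to -37.2 against 16.4 to 19 for the TRβ1 arrays of numbers 2 and 3. The model therefore carries the replicate number as a block. What the numbers stand for beyond a repeat is not given in the labels.

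Among the features that passed the test in the TRβ1 pool, far more were higher on T3 than lower. Of 20546 features, 98 (0.477%) passed an adjusted p of 0.05 in limma, 83 of them higher on T3 (0.404%) and 15 lower (0.073%). The 83 features stood for 81 genes read by a feature of their own, and 1 feature shared by several genes. All 83 moved up in 3 of 3 pairs, as did 14.3% of all features, and all 15 moved down in 3 of 3 pairs, as did 19.6% of all features. On 69 of the 83, every T3 array lay above every vehicle array, against 2.4% of all features, and on 13 of the 15 every T3 array lay below every vehicle array, against 2.64%. The features were chosen by a test on these same arrays, which favours such agreement, so these counts describe the calls and do not test them. The log2 differences (T3 minus vehicle) of the higher features ran from 0.33 to 1.83 with a median of 0.67, and 12 were at least 1, a doubling. Those of the lower features ran from -0.84 to -0.37 with a median of -0.49, and none reached 1 in size. The median over all features was -0.01, and 45.9% of them had an estimate above 0. Unadjusted p-values under 0.05 were found for 1270 features, 6.18% of those tested (457, or 2.22%, without the replicate block described next).

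The number of calls depended on the pairing and on the arrays fitted. Without the block, 15 features passed, all of them among the 98: CYP24A1, HEG1, COQ10A, PCK1, TP53INP2, FYN, HIVEP2, SERPINB9, PTAFR, TTC39C, RASSF4, GPCPD1, SLC25A51 and NR1D1 higher, and SLC2A1 lower. Every other call named below was lost in that fit, with the same estimate and a larger error. On the 6 arrays of the TRβ1 pool alone, with the block, only COQ10A passed. Leaving out the arrays of number 1, 2 or 3 throughout the series left 19, 20 and 26 calls. Leaving out a single array of the TRβ1 pool left between 46 (without T3 array 1) and 70 (without vehicle array 3). Among 94 called genes, 10 were called in each of these 9 fits: CYP24A1, HEG1, COQ10A, TP53INP2, FYN, HIVEP2, CPT1A, TTC39C, ARSB and PLCXD1. In none of them were ICOSLG, GARIN4, TNFRSF1A, ACSS3, RFLNB, CMIP, PCYT1B and OAS1 called. No estimate moved by more than 1.39 times and none changed sign. Calls were more frequent among features of higher level: ordered by mean level in 4 bins of like size, 0.0389%, 0.253%, 0.798% and 0.818% of the features were called.

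**Figure D1:**
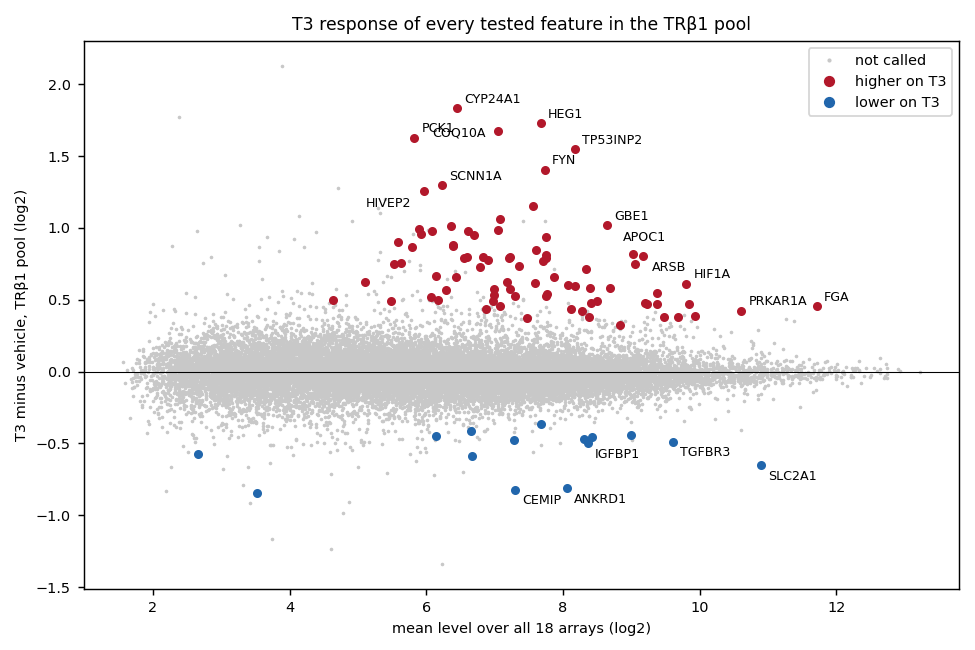
T3 minus vehicle in the TRβ1 pool (log2, vertical) against the mean level over all 18 arrays (log2, horizontal) for 20546 features. The 83 features called higher (red) lie between 0.33 and 1.83, and the 15 called lower (blue) between -0.84 and -0.37. Grey points were not called, among them 14 with an estimate of at least 1 in size.

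The largest called response was that of CYP24A1, the mitochondrial hydroxylase that inactivates vitamin D. Its log2 level on vehicle was 5.12, 5.34 and 4.54, and on T3 it was 7.22, 7.04 and 6.23, in the order of replicate numbers 1, 2 and 3. The groups did not overlap, and array 3 was the lowest under both treatments. The difference over 3 pairs was 1.83 ± 0.15, a 3.56-fold rise (adjusted p = 1.2e-05 in limma). The value after ± is the standard error (SE) of the model fitted to all 18 arrays, and not the spread of the 3 pairs. Differences below are log2 values with the SE of the model in the same way, and levels are listed in the same order. No other gene of the vitamin D list of 8 passed, VDR, the vitamin D receptor, included (0.19 ± 0.14, adjusted p = 0.999).

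HEG1, a membrane protein of cell junctions, had the smallest p. Its levels were 6.78, 6.58 and 7.0 on vehicle and 8.27, 8.54 and 8.74 on T3, a difference of 1.73 ± 0.12 (adjusted p = 4.7e-06). The arrays of each treatment lay within 0.5 of each other, and more than 1 unit separated the groups. COQ10A, a coenzyme Q-binding protein of mitochondria, went from 6.30, 6.40 and 5.98 to 7.96, 7.97 and 7.76, a difference of 1.67 ± 0.13 (adjusted p = 1.0e-05). TP53INP2, a protein of autophagosome formation that is also known as a coactivator of thyroid hormone receptors, was at 7.35, 7.91 and 7.05 on vehicle and 8.65, 9.38 and 8.92 on T3. Its difference was 1.55 ± 0.12 (adjusted p = 9.5e-06), and the vehicle array of number 2 was the highest of its group. FYN, a Src family tyrosine kinase, went from 6.73, 7.02 and 6.77 to 8.32, 8.44 and 7.95, a 2.65-fold rise (log2 difference 1.40 ± 0.10, adjusted p = 9.4e-06). HIVEP2, a zinc finger transcription factor, was at 5.27, 5.22 and 5.27 on vehicle and 6.38, 6.67 and 6.49 on T3, which gave 1.26 ± 0.11 (adjusted p = 1.7e-05). The 3 vehicle values of HIVEP2 lay closer together than those of any other gene in this group of 6.

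Around these genes, the lists they belong to stayed near the median of all features. Of 11 Src family kinases and partners only FYN passed, of 20 autophagy and lysosome genes only TP53INP2, and of 25 Krüppel-like and immediate early factors only HIVEP2. Their list medians were -0.02, 0.01 and -0.03. Over all features, 0.404% were called higher and 0.073% lower. Of 27 genes of mitochondria, coenzyme Q and the respiratory chain, COQ10A and MPV17L, an MPV17-like membrane protein (0.81 ± 0.10, adjusted p = 0.000693), rose and none fell. SLC25A51, the mitochondrial NAD carrier, was on no list. It rose by 0.77 ± 0.10 (adjusted p = 0.002), and the gene's other feature gave 1.14 without passing.

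**Figure D2:**
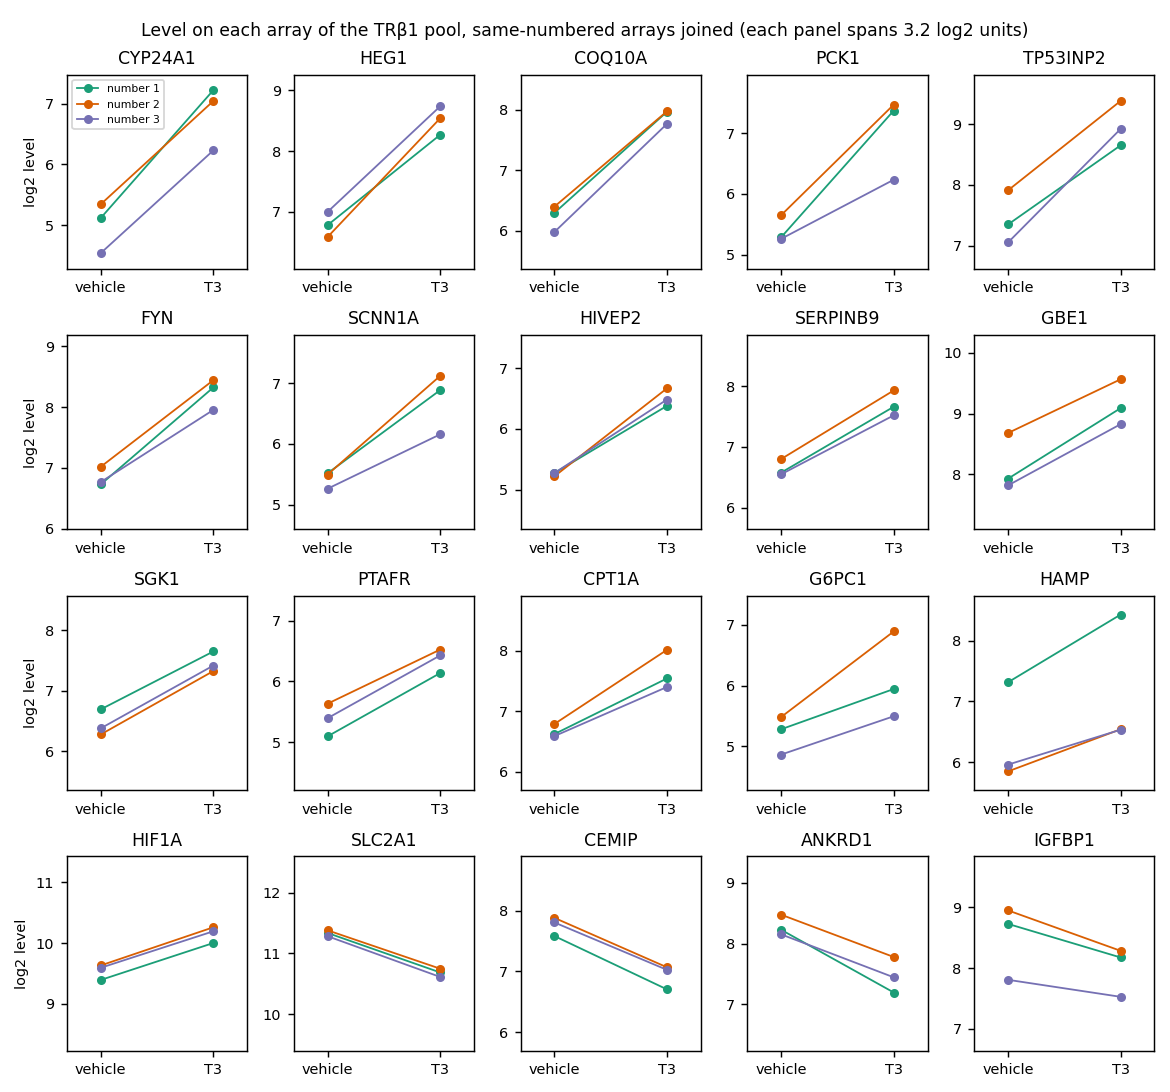
Log2 level (vertical) of 20 genes on vehicle and on T3 in the TRβ1 pool; a line joins the arrays of one replicate number, and every panel spans the same 3.2 log2 units. All lines of the first 15 genes and of HIF1A rise and those of SLC2A1, CEMIP, ANKRD1 and IGFBP1 fall, while HAMP and IGFBP1 show 1 number apart from the others under both treatments.

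Of 19 genes of gluconeogenesis and glycogen metabolism 3 rose and 0 fell, with a list median of -0.06. Over all features, 0.404% rose and 0.073% fell. PCK1, the cytosolic PEP carboxykinase that commits carbon to gluconeogenesis, was at 5.29, 5.65 and 5.26 on vehicle and 7.37, 7.47 and 6.23 on T3. Its difference was 1.63 ± 0.19 (adjusted p = 0.000392), and array 3 on T3 was more than 1 unit below the others. The PCK1 call held in 7 of the 9 fits that left arrays out. G6PC1, the catalytic subunit of glucose-6-phosphatase, which releases free glucose, was at 5.28, 5.48 and 4.87 on vehicle and 5.95, 6.89 and 5.50 on T3. The lowest T3 array of G6PC1 was just above the highest vehicle array. Its difference of 0.90 ± 0.17 passed (adjusted p = 0.0216) but held in only 2 of the 9 fits. GBE1, the glycogen branching enzyme, went from 7.93, 8.68 and 7.82 to 9.09, 9.57 and 8.83, a difference of 1.02 ± 0.13 (adjusted p = 0.000933, held in 8 of 9 fits). Its pairs rose by 1.16, 0.88 and 1.01. The other 16 members of the list, among them PYGL, the liver glycogen phosphorylase (-0.12 ± 0.08), and GYG2, a glycogenin (-0.20 ± 0.10), did not pass.

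The opposite direction was seen for SLC2A1, the GLUT1 glucose transporter of most cell types. It stood at 11.34, 11.38 and 11.28 on vehicle and 10.69, 10.75 and 10.61 on T3. All T3 arrays lay below all vehicle arrays, and the difference was -0.65 ± 0.08 (adjusted p = 0.00123). On the linear scale this was a 1.57-fold fall. It was the only call among 28 genes of glycolysis and glucose transport, of which 0 rose. Of all features, 0.404% were called higher and 0.073% lower. SLC2A2, the transporter of hepatocytes (GLUT2), gave -0.35 ± 0.13 (adjusted p = 0.598), and SLC2A3 (GLUT3) gave -0.33 ± 0.08 (adjusted p = 0.169). SLC13A5, the citrate transporter of the liver cell surface, was on no list and rose by 0.47 ± 0.07 (adjusted p = 0.0055).

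Of 22 genes of fatty acid oxidation and ketogenesis, CPT1A alone passed. For this list and those below, the shares over all features were 0.404% higher and 0.073% lower. CPT1A, an enzyme needed for long-chain acyl groups to enter mitochondria that limits the rate of oxidation, went from 6.62, 6.79 and 6.59 to 7.54, 8.01 and 7.40. That is a difference of 0.98 ± 0.10 (adjusted p = 0.000154), in 9 of 9 fits. None of 21 lipogenesis genes and none of 15 genes of cholesterol synthesis and uptake passed, with list medians of 0.05 and 0.03. THRSP (Spot 14), a classical T3 gene of rodent liver, gave 0.11 ± 0.11, and MLXIPL (ChREBP), a sugar-responsive factor, 0.42 ± 0.12 (adjusted p = 0.242). Of 18 apolipoproteins and lipoprotein genes, APOC1 rose by 0.82 ± 0.15 (adjusted p = 0.0223). Its levels, 9.15, 7.99 and 8.47 on vehicle and 10.07, 8.82 and 9.17 on T3, overlapped between treatments, with array 1 the highest under both, and the call held in 1 of 9 fits. APOA5, a regulator of plasma triglyceride, gave 0.50 ± 0.12 (adjusted p = 0.111). Of 19 bile acid genes only SLC51B, a subunit of the basolateral bile acid exporter, rose (0.62 ± 0.09, adjusted p = 0.0024). In phospholipid turnover, with 21 genes, GPCPD1, which cleaves glycerophosphocholine, rose (0.79 ± 0.12, adjusted p = 0.00584). PCYT1B, an enzyme of phosphatidylcholine synthesis named outside that list, fell by 0.37 ± 0.07 (adjusted p = 0.0442, held in 0 of 9 fits).

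Of 14 genes of the epithelial sodium channel and SGK1 axis 3 rose and 0 fell, beside 0.404% higher and 0.073% lower over all features. The list median was 0.14, the highest of the functional lists. This list, like the others, was drawn up with earlier results of these data known, so its rank is no test. SCNN1A, the alpha subunit of the sodium channel, was at 5.52, 5.50 and 5.26 on vehicle and 6.89, 7.12 and 6.16 on T3. Its rise of 1.30 ± 0.13 (adjusted p = 0.000154) was smallest in pair 3, at 0.90, against 1.37 and 1.62. SGK1, the kinase that keeps this channel at the cell surface, was at 6.69, 6.28 and 6.38 on vehicle and 7.65, 7.32 and 7.41 on T3. Its pairs agreed closely, at 0.95, 1.04 and 1.03, and the difference was 1.01 ± 0.11 (adjusted p = 0.00032). HSD11B2, which inactivates cortisol and so shields the mineralocorticoid receptor, rose by 0.80 ± 0.14 (adjusted p = 0.0139, held in 2 of 9 fits). SGK2 gave 0.48 ± 0.11 (adjusted p = 0.105), and NR3C1, the glucocorticoid receptor, 0.17 ± 0.10. Among 16 potassium and other ion channel genes only KCNJ10, an inward rectifier, rose. KCNJ10 went from 4.76, 4.98 and 4.98 to 5.65, 5.47 and 5.47 (0.62 ± 0.12, adjusted p = 0.0274), in 1 of 9 fits.

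Of 24 innate immune and NF-κB target genes 3 rose and 0 fell, with a list median of 0.11, beside 0.404% higher and 0.073% lower over all features. SERPINB9, an inhibitor of granzyme B, was at 6.58, 6.80 and 6.55 on vehicle and 7.66, 7.93 and 7.52 on T3, a rise of 1.06 ± 0.11 (adjusted p = 0.000154). PTAFR, the receptor for platelet-activating factor, was at 5.09, 5.63 and 5.39 on vehicle and 6.14, 6.52 and 6.43 on T3, a rise of 0.99 ± 0.11 (adjusted p = 0.000392). CD14, a co-receptor for bacterial lipopolysaccharide, rose by 0.75 ± 0.13 (adjusted p = 0.00938, held in 4 of 9 fits). Other calls on no immune list were picked here after their values were seen. TNFSF10, the death ligand TRAIL, rose by 0.96 ± 0.13 (adjusted p = 0.002), and MAP3K8, a kinase of inflammatory signalling, by 0.73 ± 0.11 (adjusted p = 0.00416). SERPINB1, an inhibitor of neutrophil elastase, rose by 0.72 ± 0.10, TNFRSF1A, a receptor for tumour necrosis factor, by 0.42 ± 0.08, and ICOSLG, a ligand for a T cell receptor, by 0.78 ± 0.14. The SERPINB1 call held in 7 of the 9 fits, and those of TNFRSF1A and ICOSLG in 0. UBD, a ubiquitin-like protein, was called on both of its features, at 0.55 and 0.61, and on both the treatments overlapped. Only the feature at 0.55 was followed in the 9 fits, and its call held in 1. Of 20 interferon response genes 0 rose, and OAS1, an antiviral enzyme, fell by 0.48 ± 0.09 (adjusted p = 0.0237, held in 0 of 9 fits). IRF1, a factor of that response, gave 0.49 ± 0.13 (adjusted p = 0.185).

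Of 31 acute phase and complement genes 4 rose and 0 fell, beside 0.404% higher and 0.073% lower over all features. MBL2, mannose-binding lectin, and MASP1, a protease that binds it, belong to the lectin branch of complement. MBL2 was at 6.30, 5.84 and 5.21 on vehicle and 7.08, 6.52 and 6.40 on T3 (0.88 ± 0.15, adjusted p = 0.00938, held in 5 of 9 fits). MASP1 was at 5.14, 5.50 and 5.04 on vehicle and 6.10, 5.98 and 5.86 on T3 (0.76 ± 0.11, adjusted p = 0.00333). No array on T3 was as low as any on vehicle for either gene. HAMP, which encodes the iron hormone hepcidin, was at 7.31, 5.85 and 5.96 on vehicle and 8.43, 6.54 and 6.53 on T3. Array 1 stood more than 1 unit above the others under both treatments, and the groups overlapped while each pair rose. The difference was 0.79 ± 0.12 (adjusted p = 0.00488 with the block and 1 without it). FGA, the fibrinogen alpha chain, rose by 0.46 ± 0.08 (adjusted p = 0.0114, held in 1 of 9 fits). The genes of the beta and gamma chains gave 0.36 ± 0.11 and 0.36 ± 0.10, with adjusted p = 0.354 and 0.228. FGA was the only call among 27 coagulation genes, where F13B, a subunit of coagulation factor XIII, had the larger estimate of 0.84 ± 0.19 (adjusted p = 0.0836). HAMP was the only call among 18 iron and heme genes.

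Promoter sequences were examined for the hexamer that a thyroid hormone receptor is known to bind, AGGTCA, or its reverse complement TGACCT. In RefSeq (GRCh38.p14), the 250 bases before the gene start held at least 1 such hexamer in 9 of the 64 higher genes with an entry (14.1%, of 81 in all), in 0 of 10 lower genes (of 14), and in 1379 of 14230 tested genes (9.69%). The direct repeat with 4 bases between, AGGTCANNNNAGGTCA, searched on both strands, was found in 1 of the 14230 and in none of the called genes. The 6 promoters below are those with a hexamer among the glucose, immune, complement and bile acid genes described so far, shown so that its place can be read, with the hexamer in capitals. SERPINB9 was the only higher gene with 2 hexamers, as were 0.583% of the 14230. A match describes the letters of these windows, and binding was not measured.
SERPINB9 (chr6:2903310-2903559, minus strand, granzyme B inhibitor): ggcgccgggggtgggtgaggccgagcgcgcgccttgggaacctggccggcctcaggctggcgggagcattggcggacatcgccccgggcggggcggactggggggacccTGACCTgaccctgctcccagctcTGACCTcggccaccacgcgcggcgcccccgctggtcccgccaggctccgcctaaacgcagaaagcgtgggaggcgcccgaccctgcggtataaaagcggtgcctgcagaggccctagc
PTAFR (chr1:28193857-28194106, minus strand, platelet-activating factor receptor): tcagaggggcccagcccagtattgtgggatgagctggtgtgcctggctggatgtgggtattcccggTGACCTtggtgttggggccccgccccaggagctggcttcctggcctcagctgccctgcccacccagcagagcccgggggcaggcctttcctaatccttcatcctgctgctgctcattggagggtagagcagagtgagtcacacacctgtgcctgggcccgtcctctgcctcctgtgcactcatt
G6PC1 (chr17:42900549-42900798, plus strand, glucose-6-phosphatase): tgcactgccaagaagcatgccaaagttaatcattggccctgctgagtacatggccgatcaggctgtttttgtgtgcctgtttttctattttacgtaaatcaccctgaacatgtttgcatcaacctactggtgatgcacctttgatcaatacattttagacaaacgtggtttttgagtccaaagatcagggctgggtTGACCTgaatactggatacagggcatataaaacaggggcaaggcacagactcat
GBE1 (chr3:81761646-81761895, minus strand, glycogen branching enzyme): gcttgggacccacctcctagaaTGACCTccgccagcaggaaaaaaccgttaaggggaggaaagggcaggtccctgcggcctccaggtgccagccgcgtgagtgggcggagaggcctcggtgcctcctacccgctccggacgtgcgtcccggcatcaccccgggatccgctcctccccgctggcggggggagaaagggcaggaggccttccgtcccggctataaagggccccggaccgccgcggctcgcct
MASP1 (chr3:187291738-187291987, minus strand, lectin pathway protease): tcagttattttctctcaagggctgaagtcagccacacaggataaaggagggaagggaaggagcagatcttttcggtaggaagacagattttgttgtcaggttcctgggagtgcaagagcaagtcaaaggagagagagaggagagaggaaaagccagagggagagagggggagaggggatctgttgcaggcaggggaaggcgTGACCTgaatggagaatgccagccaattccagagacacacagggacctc
SLC51B (chr15:65045137-65045386, plus strand, bile acid exporter subunit): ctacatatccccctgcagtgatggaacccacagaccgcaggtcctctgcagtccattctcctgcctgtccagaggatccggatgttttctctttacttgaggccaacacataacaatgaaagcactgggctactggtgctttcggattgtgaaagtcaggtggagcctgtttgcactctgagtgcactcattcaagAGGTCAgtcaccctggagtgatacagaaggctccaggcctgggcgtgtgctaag

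**Figure D3:**
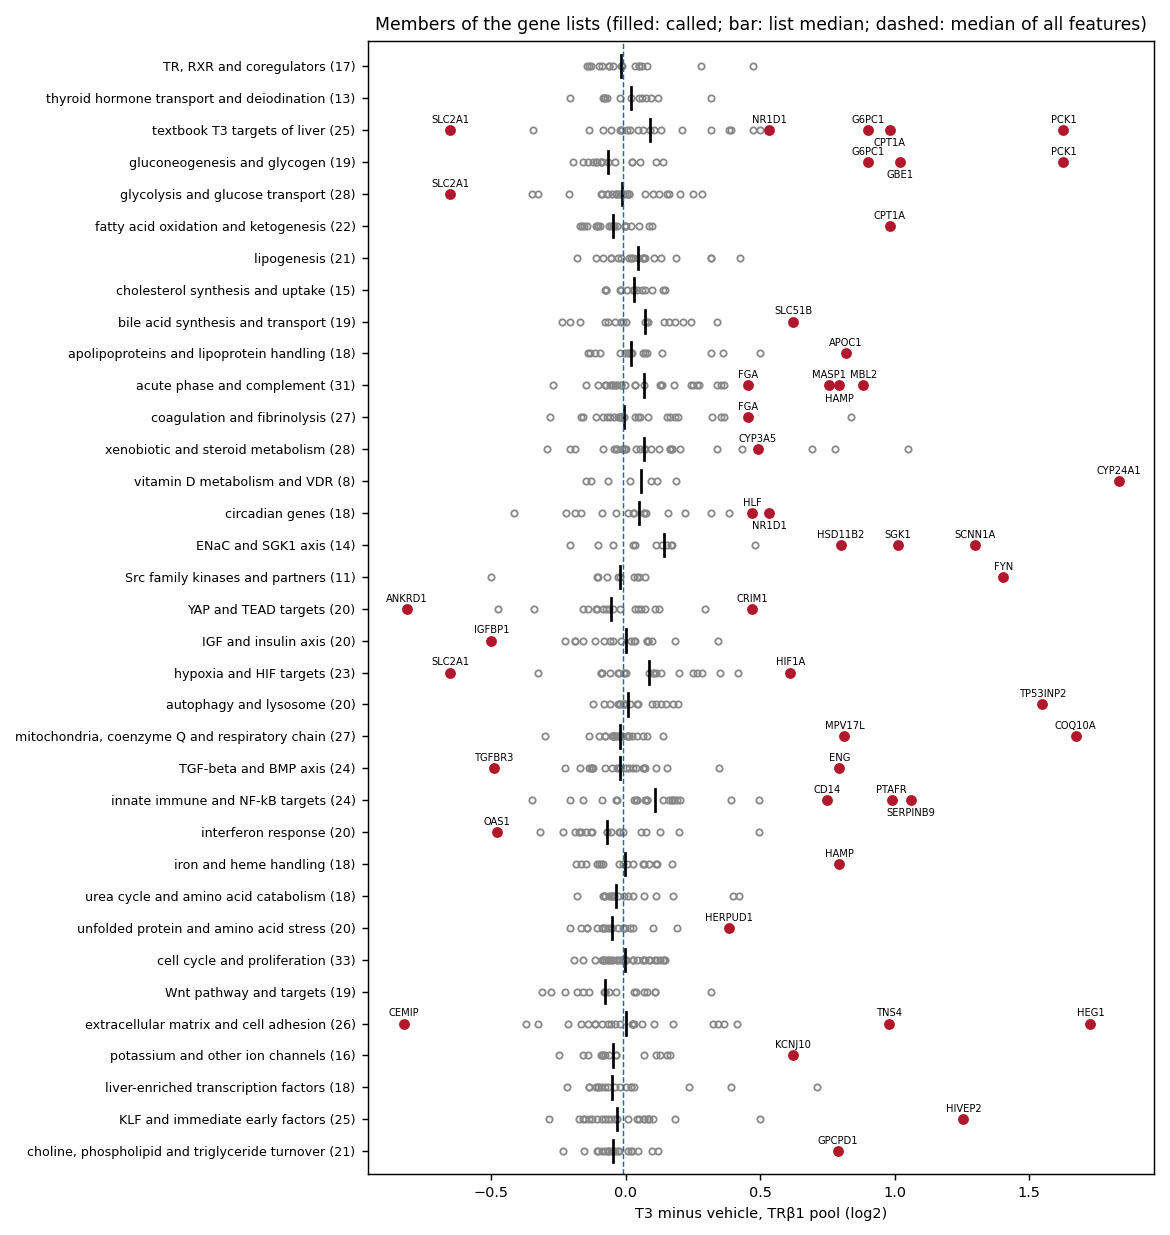
T3 minus vehicle in the TRβ1 pool (log2, horizontal) for each tested gene of 35 functional lists (vertical, with the number of genes tested in parentheses). Filled points were called, short bars mark list medians between -0.08 and 0.14, and the dashed line marks the median of all features, -0.01.

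The textbook T3 targets of liver, a list of 25 genes, gave 4 rises (PCK1, CPT1A, G6PC1 and NR1D1) and 1 fall (SLC2A1), with a median of 0.09. The shares over all features were 0.404% higher and 0.073% lower. NR1D1, the clock repressor REV-ERBα, whose gene overlaps that of THRA on the opposite strand, was at 6.72, 6.79 and 6.73 on vehicle and 7.34, 7.28 and 7.21 on T3. Its rise was 0.53 ± 0.08 (adjusted p = 0.00333). KLF9, a transcription factor known as a direct T3 target, gave 0.50 ± 0.11 and fell just short of passing (adjusted p = 0.058). DIO1, the liver deiodinase, gave 0.32 ± 0.09 (adjusted p = 0.219) and did not pass. Of 18 circadian genes NR1D1 and HLF, a PAR-type transcription factor (0.47 ± 0.08, adjusted p = 0.00799, held in 3 of 9 fits), rose. DBP, a factor of the same type, gave 0.38 ± 0.09 (adjusted p = 0.143), and BMAL1, which NR1D1 is known to repress, -0.41 ± 0.15 (adjusted p = 0.583).

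The receptor system itself held no call. THRA, the TRα gene, was at 6.91, 7.08 and 7.22 on vehicle and 7.01, 6.85 and 7.17 on T3, a difference of -0.06 ± 0.13. THRB, the TRβ gene, was at 6.97, 7.01 and 6.88 on vehicle and 7.39, 7.48 and 7.40 on T3. The groups did not overlap and every pair was higher on T3, by 0.42, 0.47 and 0.52, but the difference of 0.47 ± 0.11 did not pass (adjusted p = 0.131). Whether the THRB probes read the introduced TRβ1 copy is not given in the sources used here, so this level is no check of the construct. Of 17 genes of the receptors, the retinoid X receptors and coregulators, and of 13 genes of thyroid hormone transport and deiodination, none passed. Their medians were -0.02 and 0.02, and 0.477% of all features passed.

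Among genes of adhesion, the matrix and surface signalling, calls were few and went in both directions. The matrix and adhesion, YAP and TEAD, and TGF-β and BMP lists had medians of 0.001, -0.05 and -0.02. Over all features, 0.404% were called higher and 0.073% lower. Of 26 matrix and adhesion genes, HEG1 and TNS4, a tensin of focal adhesions (0.98 ± 0.12, adjusted p = 0.00113), rose and CEMIP fell. CEMIP, a protein of hyaluronan breakdown, went from 7.58, 7.88 and 7.81 to 6.70, 7.07 and 7.03, a difference of -0.82 ± 0.10 (adjusted p = 0.000568, held in 7 of 9 fits). PPL and MMP11 were not on that list and were picked here after their values were seen. PPL, the cytolinker periplakin, rose by 0.98 ± 0.15 (adjusted p = 0.00416), and MMP11, a secreted metalloproteinase, by 0.57 ± 0.10 (adjusted p = 0.0107, held in 2 of 9 fits). Of 20 YAP and TEAD target genes, CRIM1, a membrane protein that binds growth factors, rose by 0.47 ± 0.06, and ANKRD1, a nuclear ankyrin-repeat protein, fell. The ANKRD1 levels were 8.23, 8.47 and 8.15 on vehicle and 7.19, 7.78 and 7.44 on T3, and its difference was -0.81 ± 0.13 (adjusted p = 0.00861, held in 4 of 9 fits). CCN2, another target of this pathway, gave -0.48 ± 0.14 (adjusted p = 0.323). Of 24 genes of the TGF-β and BMP axis, 1 rose and 1 fell, both co-receptors. ENG (endoglin), at 6.01, 6.44 and 6.07 on vehicle and 6.84, 7.12 and 6.94 on T3, rose by 0.79 ± 0.13 (adjusted p = 0.00861, held in 3 of 9 fits), and TGFBR3 (betaglycan) fell by 0.49 ± 0.10 (adjusted p = 0.0337, held in 1 of 9 fits). ENG is also an endothelial gene, and the 5 endothelial markers above were all below the array medians under both treatments.

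The remaining lower genes were few. IGFBP1, a secreted binding protein of insulin-like growth factors, was at 8.73, 8.95 and 7.81 on vehicle and 8.17, 8.28 and 7.53 on T3. The groups overlapped, with array 3 lowest under both treatments, and the difference was -0.50 ± 0.10 (adjusted p = 0.0454, held in 1 of 9 fits). JAG1, a Notch ligand, fell by 0.44 ± 0.07, SLC1A4, a carrier of neutral amino acids, by 0.46 ± 0.07, and ICAM2, an adhesion molecule, by 0.45 ± 0.09. Their calls held in 3, 6 and 1 of the 9 fits. ENC1, USP27X and ZNF704 fell by 0.47 ± 0.08, 0.59 ± 0.12 and 0.41 ± 0.08, with calls held in 3, 1 and 1 of 9 fits. EXOC5, named here only because its features disagree, was called on 1 of its 3 features (-0.57), while the other 2 gave 0.03 and -0.06. The called feature had a mean level of only 2.66, against 8.35 and 6.77 for the others.

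Other rises fell outside the lists. Of the called genes, 39 were on a list and 56 were on none. Among all features, 0.404% were called higher and 0.073% lower. SLC1A2, a glutamate transporter, rose by 0.95 ± 0.13 (adjusted p = 0.00237), and SLC38A3, a glutamine transporter, by 0.47 ± 0.09 (adjusted p = 0.0201, held in 1 of 9 fits). ARSB, a lysosomal sulfatase, was at 8.57, 8.77 and 8.84 on vehicle and 9.31, 9.57 and 9.71 on T3 (0.80 ± 0.08, adjusted p = 0.000154). The TTC39C difference was 0.94 ± 0.10 (adjusted p = 0.000216), with a further feature of that gene at 0.30 that did not pass. PLCXD1 had one of the smallest errors, at 0.75 ± 0.07 (adjusted p = 5.5e-05). TIGD2, LDLRAD1, CABLES2 and ZNF165 rose by 0.88 ± 0.14, 0.87 ± 0.14, 0.84 ± 0.11 and 0.79 ± 0.13, with calls held in 4, 4, 8 and 3 of 9 fits. HIF1A, the hypoxia-inducible subunit, was at 9.39, 9.63 and 9.59 on vehicle and 10.0, 10.26 and 10.20 on T3 (0.61 ± 0.09, adjusted p = 0.00342). Among the 23 hypoxia genes, HIF1A was the only rise and SLC2A1, a gene known to be induced by hypoxia, the only fall. HERPUD1, a protein of endoplasmic reticulum degradation, was the only call among 20 stress genes (0.38 ± 0.07, adjusted p = 0.0164, held in 1 of 9 fits). CYP3A5, a drug-metabolising cytochrome, was the only call among 28 genes of xenobiotic and steroid metabolism (0.49 ± 0.10, adjusted p = 0.0414, held in 1 of 9 fits). CYP1A1, another cytochrome, had a larger estimate of 1.05 ± 0.25 without passing (adjusted p = 0.114). Its vehicle levels of 9.19, 5.79 and 5.36 differed by more than 3 units between numbers.

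Of 33 cell cycle genes, 19 Wnt genes, 18 liver-enriched transcription factors and 18 genes of the urea cycle and amino acid catabolism, none passed, with medians of -0.00, -0.08, -0.05 and -0.04. CEBPA and CEBPB, leucine zipper factors of hepatocytes, gave 0.39 ± 0.09 and 0.71 ± 0.17 (adjusted p = 0.0862 and 0.106). Over the 705 tested genes of all lists together 33 rose and 6 fell, with a median of -0.00. Over all features 0.404% rose and 0.073% fell, and the lists were drawn up with earlier results of these data known.

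Comparison with the other pools, whose arrays are separate samples, showed the same direction for nearly all calls. Of the 83 higher features, 83 were above 0 in TRα1 cells and 80 in control cells, where 43.9% and 46.2% of all features were above 0. Their medians were 0.67 for TRβ1, 0.74 for TRα1 and 0.36 for the control pool. The features were chosen on the TRβ1 arrays, which favours larger values there. Of the 15 lower features 14 were below 0 in TRα1 cells and 15 in control cells, with medians of -0.40 and -0.17 beside -0.49. The TRα1 pool called 137 features (0.667%), 120 higher (0.584%) and 17 lower (0.0827%), and the control pool 20 (0.0973%), all higher, of which 2 (0.00973%) passed without the block. Of the 98 calls, 86.7% were also called in TRα1 cells and 18.4% in control cells. These shared calls made up 62.0% of the TRα1 calls and 90.0% of the control calls. No feature was called in opposite directions. Called in the TRβ1 and not in the TRα1 pool were 13 features, among them HAMP, FGA, TNFRSF1A, PRKAR1A, a regulatory subunit of protein kinase A, and HGD, an enzyme of tyrosine breakdown, all higher, and ANKRD1, IGFBP1, ENC1 and USP27X, all lower. The test of the difference between pools, given below, called none of them.

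**Figure D4:**
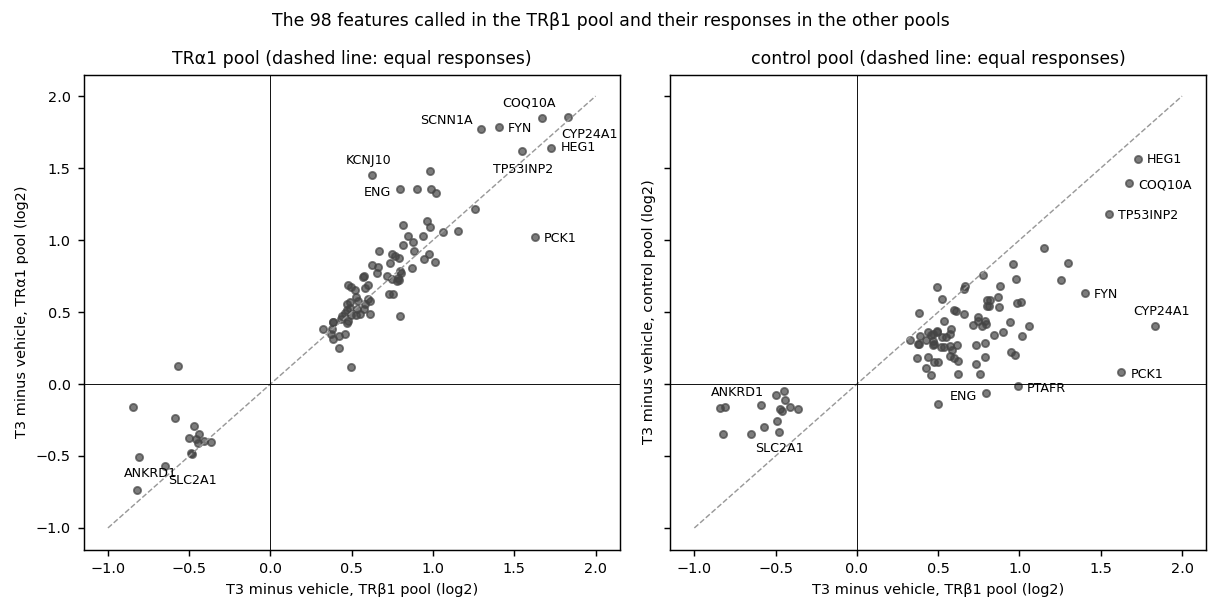
Responses (T3 minus vehicle, log2) of the 98 features called in the TRβ1 pool, with the TRβ1 response on the horizontal axes and that of the TRα1 (left) or control pool (right) on the vertical axes. Of the 83 higher features, 48 lie above the dashed line of equal responses on the left and 4 on the right, where 3 lie below 0 and their median is 0.36 against 0.67.

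The responses themselves were compared between pools by the interaction term of the same model. Between the TRβ1 and control pools, 0 features passed, with 835 (4.06%) at an unadjusted p under 0.05, and without the block 0 passed, with 275 (1.34%). The smallest adjusted p was that of CYP24A1, whose response was larger in the TRβ1 pool by 1.43 ± 0.21 (95% interval 0.99 to 1.87, adjusted p = 0.113). It passed in 5 of 17 alternatives, whose adjusted p ran from 0.00947 to 1: with a block per pool (0.0109), without dim features (0.0238), with a variance trend (0.0152), without vehicle array 2 (0.00947) and without T3 array 3 (0.0299). PCK1 followed with 1.55 ± 0.26 (0.98 to 2.11, adjusted p = 0.163), passing in 1 of 16 alternatives (without T3 array 3, adjusted p = 0.00134; the range was 0.00134 to 1.0). PTAFR gave 1.0 ± 0.16 (0.66 to 1.34, adjusted p = 0.158). For HEG1 the interval was -0.18 to 0.52 around 0.17, so its response differed from that of the control pool by less than 1 log2 unit either way. Of the 83 higher features the TRβ1 response was further from 0 than that of the control pool in 79, and in all of the 15 lower features. These features were chosen on the TRβ1 arrays, which favours that outcome, so the counts are no test of a larger response.

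The levels behind these differences took different forms. CYP24A1 was lower on vehicle in the TRβ1 pool (5.00 ± 0.41, mean ± SD, n = 3) than in the control pool (6.68 ± 0.33), and its levels on T3 were 6.83 ± 0.53 and 7.08 ± 0.29. Its T3 groups overlapped between these pools, while its vehicle groups did not. PCK1 had like vehicle levels (5.40 ± 0.22 and 5.36 ± 0.35) and was at 7.02 ± 0.69 on T3 in the TRβ1 pool against 5.44 ± 0.33 in the control pool. PTAFR was at 5.54 ± 0.17 on vehicle and 5.53 ± 0.12 on T3 in the control pool, against 5.37 ± 0.27 and 6.36 ± 0.20 in the TRβ1 pool. HEG1 rose in the control pool from 6.92 ± 0.13 to 8.48 ± 0.32 and in the TRβ1 pool from 6.79 ± 0.21 to 8.51 ± 0.24. ENG gave -0.06 ± 0.13 in the control pool, where 0 of 3 pairs were higher, against 3 of 3 in the TRβ1 pool (difference 0.85 ± 0.19, adjusted p = 0.624).

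**Figure D5:**
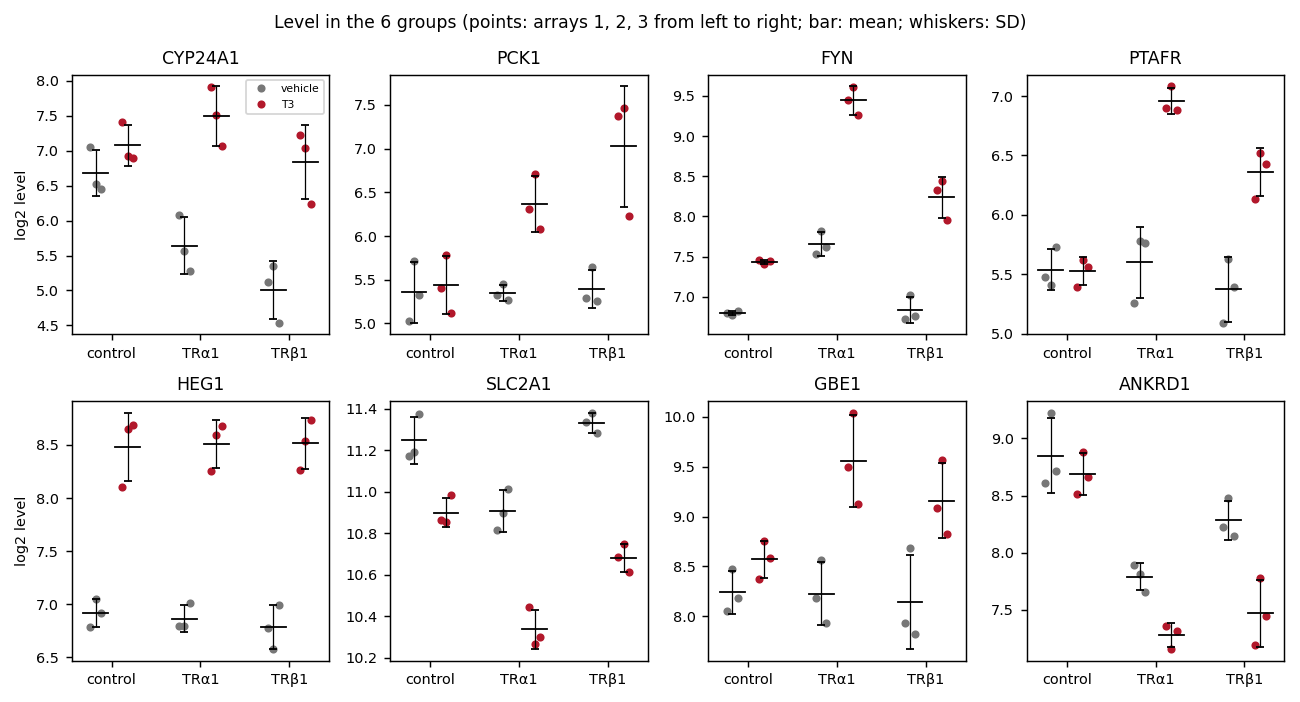
Log2 level (vertical) of 8 genes on every array of the control, TRα1 and TRβ1 pools, on vehicle (grey) and T3 (red), with the mean as a bar and the SD as whiskers. HEG1 reaches means of 8.48 to 8.51 on T3 in each pool, while the control pool means of PCK1 and PTAFR lie between 5.36 and 5.54 on both treatments.

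Between the TRβ1 and TRα1 pools, 0 features passed as well, with 619 (3.01%) at an unadjusted p under 0.05 and, without the block, 0 with 223 (1.09%). The KCNJ10 rise was smaller in the TRβ1 pool by 0.83 ± 0.17 (95% interval -1.19 to -0.47, adjusted p = 0.9998). The called EXOC5 feature had estimates of opposite sign in these pools, -0.57 in TRβ1 and 0.13 in TRα1 cells (difference -0.70 ± 0.13, adjusted p = 0.9998). Its mean level was only 2.66, and the gene's features of higher level gave 0.03 and -0.06 in the TRβ1 pool. The PCK1 rise was larger in the TRβ1 pool by 0.60 ± 0.26 (0.04 to 1.17, adjusted p = 0.9998). For FYN, PTAFR and ENG the estimate was smaller in the TRβ1 pool, at -0.38, -0.36 and -0.56. For CYP24A1 and HEG1 the intervals were -0.47 to 0.42 and -0.26 to 0.43. An interval that holds 0 does not show that the receptors act alike. Over the 83 higher features the TRβ1 response was further from 0 than that of the TRα1 pool in 35, and over the 15 lower features in 13. The choice of features on the TRβ1 arrays favours larger responses there, so these counts are no test either.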

How the data were processed

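Per the labels, total RNA (200 ng per sample) was amplified, labelled with biotin and hybridised to single-colour Affymetrix gene arrays. The deposited values are log2 expression levels after RMA (background correction, quantile normalization and probe summary), which the submitters' processing notes place in R 2.7.1 and which the authors ran before deposit. The genome build of the array annotation is not given in the sources used here. The table held 32321 features on 18 arrays, with values from 0.894 to 13.7 and array medians from 5.31 to 5.49. Precision is limited by the 3 arrays of each group.

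The 20546 features with a gene symbol (18404 genes, 1388 features shared by several genes) were tested, with names from the platform annotation, 19128 of them matched to RefSeq by Entrez ID. A model with 6 groups and the replicate number as a block of 3 levels was fitted to all 18 arrays with limma 3.58.1 (lmFit and eBayes) in R 4.3.3. Its residual degrees of freedom were 10 and the median SE of the TRβ1 contrast was 0.107, against 0.157 without the block. Two-sided p-values were adjusted by Benjamini-Hochberg over the 20546 features, with a threshold of 0.05. The scripts were tested on simulated data.

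The block follows the replicate number in the titles, which pairs the arrays. All 45 same-numbered pairs of arrays correlated positively after subtraction of group means, the lowest at 0.259. Of the 18 arrays, 18 matched best with one of their own number. Differently numbered arrays had a median of -0.483. Subtracting group means pushes these below 0 when same-numbered arrays correlate positively, so that median adds no separate support for the block.

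Where a gene had more than 1 feature, that of the highest mean level stood for it. Genes that could be named were the 30 highest and up to 20 lowest single-gene calls (14 were lower), THRA and THRB, up to 6 genes per list by smallest p, the 6 features with the smallest p in each difference between pools, and other calls within counts. The arrays compared, the genes and the lists were chosen with earlier results of these data known. Of 834 list entries 763 were matched. Alternatives were a fit without the block, a block per pool, array weights, other centring, other feature sets, a variance trend, the TRβ1 arrays alone and leaving out arrays.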

Additional observations from a re-analysis of the deposited data

Results flagged for a closer look

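The counts above do not use the 11775 features without a gene symbol. In a separate limma fit of all 32321 features, adjusted over all of them, 4 of these passed for T3 in the TRβ1 pool (0.034%). All 4 were higher, and none of these 4 passed in the control pool. That fit called 78 features in all, so its share is not directly comparable with those above. They were flagged as a signal outside the tested features.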

How the results depend on the processing

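Beside the 98 calls (83 higher, 15 lower), the fit without the replicate block gave 15 (14 higher, 1 lower), all shared with the 98. The TRβ1 arrays alone gave 1 (1 higher, COQ10A, 0 lower), with fewer arrays to estimate the spread. A block per pool gave 105 calls, 87 of them among the 98, and 11 of the 94 called genes lost their call. Array weights gave 164 (130 higher, 34 lower), all 98 among them. Without dim features 27 were lower, and 7 were lower when every feature was tested, named or not. Leaving out arrays or numbers gave 19 to 70 calls, 18 to 61 higher and 0 to 10 lower. The difference between the TRβ1 and control responses had 0 calls in the model used here and 1, CYP24A1, without dim features, with a variance trend or with a block per pool. It had 0 to 2 calls when arrays were left out. The difference between the TRβ1 and TRα1 responses had 0 calls in each alternative run. No called gene changed sign in any alternative. The cause of these shifts was not tested beyond the numbers of features and arrays. Clones and receptor cannot be told apart, and 3 pairs limit what can be called.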
